A study of Mus musculus with 6 samples.

Results

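The expression of 9 genes of the actin cytoskeleton was followed in hepatocytes of mice given Sox4, of the 53599 gene symbols in the count table. They were taken by symbol: Marcks, Marcksl1, Basp1 and Gap43, which encode MARCKS proteins and their functional relatives; Fscn1; the beta thymosins Tmsb4x and Tmsb10; and the cytoplasmic actins Actb and Actg1. The list was chosen with the difference between Sox4 and control in view, so its values for that difference are given as a description, with no test. Of the 9 genes, 7 passed the filter on low counts. Basp1 and Gap43 did not. In GENCODE M21 (GRCm38), Marcks lies on chromosome 10, Marcksl1 on 4, Basp1 on 15, Gap43 on 16, Fscn1 and Actb on 5, Tmsb4x on X, Tmsb10 on 6 and Actg1 on 11. The counts were made on GRCm39, so positions within genes are not given except for promoter windows of the reference.

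RNA-seq was performed on 3 hepatocyte libraries per group, from cells collected 4 days after adeno-associated virus (AAV), which carries genes to cells in vivo, was injected. The Sox4 group received AAV8-TBG-HA-Sox4-P2A-Cre, which encodes HA-tagged Sox4 and Cre recombinase, and the control group, empty vector (EV), received AAV8-TBG-Cre. Cre was therefore delivered to both groups, in each case under the hepatocyte promoter TBG. The labels give the genotype as WT for EV and Sox4 for the other group, while the study's methods describe homozygous Rosa-LSL-Cas9-EGFP mice on C57BL/6J, in which Cre would switch on Cas9 and EGFP in both groups. By the methods the animals were a few weeks old. The reporting summary gives the mice as male, and the EV dose for these libraries is not given in the sources used here. Liberase was used to digest the tissue, and a Percoll density step enriched the hepatocytes without removing all other cells.

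Libraries held 15090629 to 16249382 counts in EV and 16679195 to 16964860 in Sox4. Sox4 itself was read 2, 0 and 3 times in EV 1 to 3, and in Sox4 1 to 3 it had 21697, 15097 and 11816 counts, as the labels would have it. Levels are CPM, that is, reads for every 1000000 in the library after scaling of library sizes by trimmed mean of M-values (TMM), as mean ± SD with n = 3. A count of 3 was taken as the floor, which is 0.218 to 0.231 CPM for EV libraries and 0.150 to 0.153 CPM for Sox4 libraries, and covers counting error only. Nothing in the labels says which libraries were prepared together, so no batch could be examined. All 8 hepatocyte markers examined had counts in every library, led by Alb.

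Actin monomers assemble into filaments that form the cortex beneath the plasma membrane, and in hepatocytes a dense belt around the bile canaliculus. MARCKS proteins are anchored in the membrane by a lipid and a basic effector domain, through which they bind the phospholipid PIP2 and actin filaments, and they leave the membrane when protein kinase C phosphorylates that domain or calmodulin binds it. Beta thymosins hold actin as monomers, fascin packs filaments into the parallel bundles of filopodia, and the transcription factor SRF with its actin-sensing MRTF coactivators controls many of the genes of this system.

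Both MARCKS genes went from near the floor in EV to well above it in Sox4. Marcks, which encodes the founding member of the family, had EV 1 to 3 counts of 1, 9 and 18, and Sox4 1 to 3 counts of 1820, 1902 and 2355. The groups were far apart, and EV 1 was under the floor. Its level was 0.688 ± 0.614 CPM in EV and 102 ± 14.8 CPM in Sox4, a log2 fold change (log2FC) of 7.18 (SE 0.85). Because the EV level rests on so few reads, the fold depends on which EV library is counted, and without EV 3 the log2FC was 8.02.

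Marcksl1, the MARCKS-like protein 1 gene, showed the greatest difference among the 9 genes. It had 7, 4 and 11 counts in EV and 7546, 6534 and 5547 counts in Sox4, or 0.547 ± 0.247 against 331 ± 48.6 CPM (SD, n = 3). The lowest Sox4 library was 352 times the highest EV library. The log2FC was 9.21 (SE 0.35), which ranked 23 of 12691 genes tested, while Marcks ranked 111. Within Sox4 the 2 genes ran in opposite orders, with Marcks highest and Marcksl1 lowest in Sox4 3.

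The transcripts of these 2 genes share little sequence. Their coding sequences, 930 bases for Marcks and 603 for Marcksl1 with the stop codon, were most alike over a stretch of 75 bases that spans the effector domain. The stretch is shown because it is the part through which both proteins bind membrane, actin and calmodulin, and capitals mark the 20 bases that differ. It runs from coding base 436 to 510 in Marcks and 259 to 333 in Marcksl1 (GENCODE M21 transcripts Marcks-201 and Marcksl1-201, sense strand).
Marcks: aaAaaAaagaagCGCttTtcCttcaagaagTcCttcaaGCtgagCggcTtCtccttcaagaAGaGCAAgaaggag
Marcksl1: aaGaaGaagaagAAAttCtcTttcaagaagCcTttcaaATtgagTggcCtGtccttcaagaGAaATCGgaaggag
The longest run of identical bases between the coding sequences was 17. Of all 50-base stretches in their annotated transcripts, 0.075% of Marcks and 1.61% of Marcksl1 also occur in transcripts of other genes.

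The remaining relatives had few reads or none. Basp1, a membrane-anchored protein first found in brain, had 0 counts in every EV library and 1, 4 and 2 counts in Sox4 1 to 3. Only Sox4 2 exceeded the floor, so no fold is given. Gap43, the growth cone protein of neurons, had 0 counts in all 6 libraries, which allows up to 0.231 CPM in the EV libraries and up to 0.153 CPM in the Sox4 libraries. Gap43 and Basp1 thus differed from Marcks and Marcksl1 in that no library held more than 4 of their reads.

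**Figure D1:**
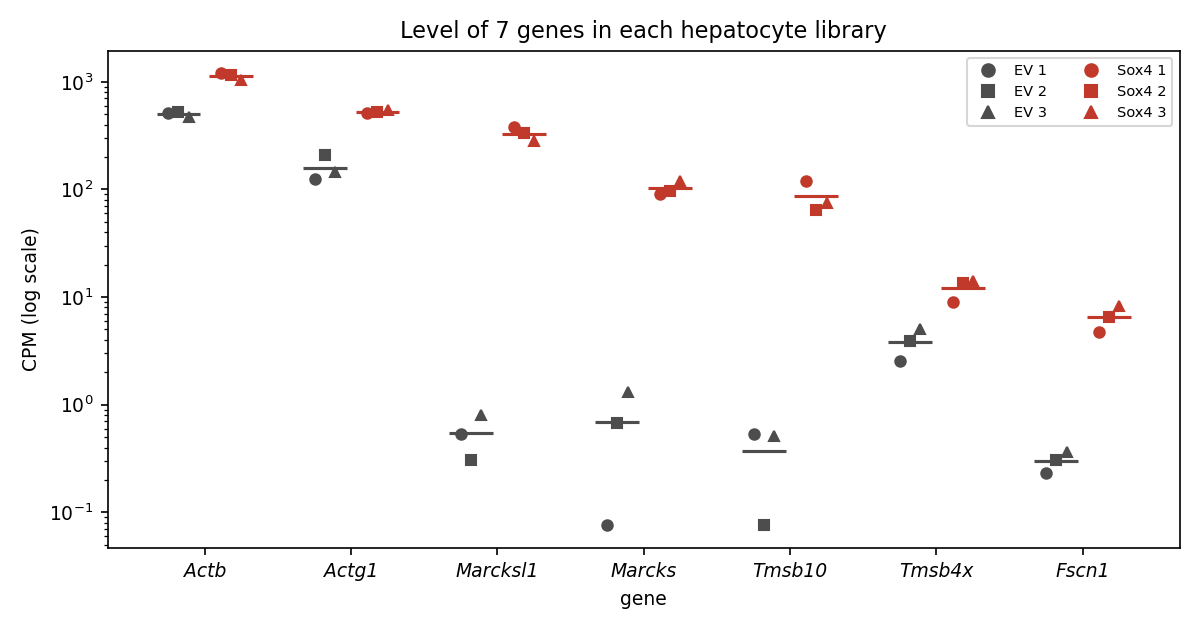
Level of 7 genes in each library, in CPM on a log axis. Points are libraries, with replicate 1 as a circle, 2 as a square and 3 as a triangle, grey for EV and red for Sox4, and horizontal lines are group means. All Sox4 libraries lie above all EV libraries in each gene, by the widest gap in Marcksl1 and by the narrowest in Tmsb4x. Basp1 and Gap43 are left out because of counts of 0.

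Tmsb10 and Tmsb4x, which encode small proteins that sequester actin monomers, differed widely in the size of their difference. Tmsb10 had 7, 1 and 7 counts in EV and 2414, 1252 and 1470 counts in Sox4. Sox4 1 was the highest, at 121 CPM, against 63.9 and 74.4 CPM in Sox4 2 and 3. Mean levels were 0.374 ± 0.259 CPM in EV and 86.4 ± 30.3 CPM in Sox4, a log2FC of 7.82 (SE 0.63).

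Tmsb4x was the thymosin with more reads in EV. Its counts were 33, 51 and 70 in EV and 179, 263 and 276 in Sox4, or 3.83 ± 1.27 against 12.1 ± 2.75 CPM. The lowest Sox4 library was 1.76 times the highest EV library, and the log2FC was 1.66 (SE 0.35). In EV the mean CPM of Tmsb4x was above that of Tmsb10, and in Sox4 it was below it. Per kilobase of annotated exon the same held, with 2.79 ± 0.926 CPM per kb for Tmsb4x and 0.293 ± 0.203 for Tmsb10 in EV, and 8.84 ± 2.00 against 67.7 ± 23.8 in Sox4. The 2 genes did not overlap in either group on this scale.

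Although both thymosin genes have 135 coding bases, reads of one are not readily taken for the other. Their coding sequences align without a gap over coding bases 1 to 117, with 75.2% identity, and are shown for that reason. Capitals mark the 29 bases that differ (transcripts Tmsb4x-201 and Tmsb10-201, sense strand).
Tmsb4x: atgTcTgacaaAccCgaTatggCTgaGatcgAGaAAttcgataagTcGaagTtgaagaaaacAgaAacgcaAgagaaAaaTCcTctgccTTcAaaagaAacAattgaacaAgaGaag
Tmsb10: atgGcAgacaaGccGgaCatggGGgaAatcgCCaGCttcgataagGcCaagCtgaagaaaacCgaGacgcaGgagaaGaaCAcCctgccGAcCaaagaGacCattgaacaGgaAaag
No identical run was longer than 10 bases. No 50-base stretch of Tmsb4x occurred in another annotated gene, but 27.0% of those of Tmsb10 did. Most of these lie in Gm9844, an annotated gene that shares 21.6% of all Tmsb10 stretches and had 0 counts in each EV library and 66, 110 and 82 counts in Sox4 1 to 3. Reads of Tmsb10 and Gm9844 may therefore have been divided between them, and the value of Tmsb10 is uncertain to that extent.

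Fscn1, the gene of fascin, was low in both groups. It had 3, 4 and 5 counts in EV and 94, 129 and 163 in Sox4, so each EV library was near the floor. Its level was 0.299 ± 0.0660 CPM in EV and 6.51 ± 1.77 CPM in Sox4, a log2FC of 4.41 (SE 0.27). Even in Sox4 it was the lowest of the 7 genes per kilobase of exon, at 2.16 ± 0.589 CPM per kb.

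The cytoplasmic actins were abundant in both groups. Actb, beta-actin, had 6727, 6896 and 6465 counts in EV and 23954, 22695 and 20425 in Sox4. This amounted to 503 ± 29.8 against 1130 ± 86.1 CPM, a ratio of means of 2.25 and a log2FC of 1.17 (SE 0.08). Actb varied least among the EV libraries, with a coefficient of variation of 5.93%. Actg1, gamma-actin, had 1608, 2750 and 2013 counts in EV and 10260, 10282 and 10785 in Sox4, or 159 ± 44.0 against 528 ± 16.4 CPM, a log2FC of 1.73 (SE 0.22). EV 2 was the highest EV library for Actg1, and the Sox4 libraries lay within 1.06 times of each other.

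Gamma-actin reads made up a greater part of the actin total in Sox4. For each read of Actb there were 0.239, 0.399 and 0.311 reads of Actg1 in EV and 0.428, 0.453 and 0.528 in Sox4. The groups did not overlap, though EV 2 and Sox4 1 were close. Since each ratio is taken within a library, it does not depend on how libraries are scaled. Both actins together took 0.0522 to 0.0615% of all counts in EV and 0.186 to 0.202% in Sox4.

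The first 63 coding bases of the 2 actins are shown because the proteins differ mainly at their start. Capitals mark the 10 bases that differ (GENCODE M21 coding sequences, sense strand).
Actb: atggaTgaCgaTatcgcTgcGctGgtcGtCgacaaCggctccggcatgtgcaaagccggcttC
Actg1: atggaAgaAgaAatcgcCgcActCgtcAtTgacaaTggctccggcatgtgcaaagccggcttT
Over their full coding sequences of 1128 bases each, 88.7% of bases were identical and the longest identical run was 62. Stretches of 50 bases shared with Actb made up 1.02% of Actg1. Other annotated genes shared more with it. Of the 50-base stretches of Actg1, 37.4% occur in other genes, with 33.2% in Gm12715, which had 18, 21 and 10 counts in EV and 78, 87 and 54 in Sox4. For Actb the share was 9.12%, with 6.14% in Lrrc58. The counting rule for such reads is not given in the sources used here.

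All 7 genes that passed the filter had an edgeR adjusted p under 0.05 and were higher in Sox4, where 29.0% of all tested genes were called in that direction. Their groups did not overlap, as in 33.1% of all tested genes. Since the genes were selected on this contrast, nothing is read from either count. The direction held under every alternative that gave a value, but the size moved with the scaling. The median log2FC of all tested genes came to 0.04 under TMM, 0.51 with library size alone and -1.13 when each library was scaled to its own Actb count, the reference transcript of the study's qRT-PCR. With library size alone, Actb was at 1.64 and Actg1 at 2.20 on the log2 scale.

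Scaled to Actb, the differences were smaller and Tmsb4x no longer separated the groups. Per 1000 Actb counts there were 4.91, 7.40 and 10.8 counts of Tmsb4x in EV and 7.47, 11.6 and 13.5 in Sox4. On the log2 scale Tmsb4x was then at 0.51 and Actg1 at 0.60. Marcksl1, at 8.06, Tmsb10, at 6.81, Marcks, at 6.56, and Fscn1, at 3.10, were still far above EV. Per 1000 Actb counts, Marcksl1 had 1.04, 0.580 and 1.70 counts in EV and 315, 288 and 272 in Sox4.

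**Figure D2:**
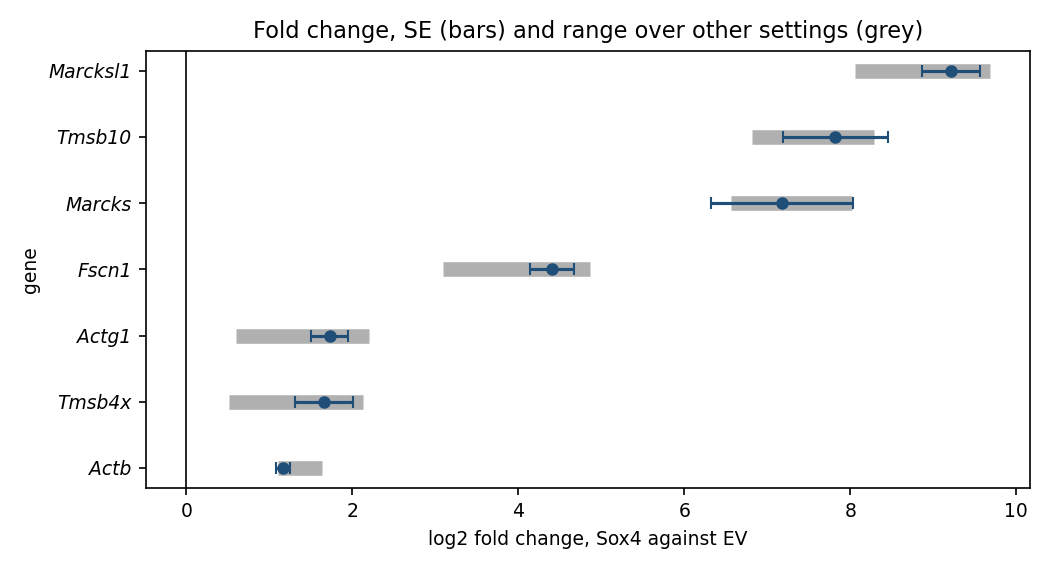
Log2 fold change of Sox4 against EV for 7 genes. Points are the values with TMM scaling, bars the SE of the difference of group means, and grey bands the lowest to highest value over the alternative settings. The bands of Marcksl1, Tmsb10, Marcks and Fscn1 lie above 3, and those of Actg1 and Tmsb4x reach down to 0.60 and 0.51 when libraries are scaled to Actb.

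Levels of different genes were compared per kilobase of annotated exon. In Sox4 the order was Actb at 422 ± 32.1 CPM per kb, Marcksl1 at 206 ± 30.3, Actg1 at 199 ± 6.17, Tmsb10 at 67.7 ± 23.8, Marcks at 25.3 ± 3.66, Tmsb4x at 8.84 ± 2.00 and Fscn1 at 2.16 ± 0.589 (SD, n = 3). Marcksl1 and Actg1 did not differ beyond their spread, and by the length of the longest coding transcript their order was reversed, at 206 ± 30.3 and 270 ± 8.40 CPM per kb. In EV, Actb stood at 188 ± 11.1 and Actg1 at 60.0 ± 16.5 CPM per kb, followed by Tmsb4x. Marcksl1, Tmsb10, Marcks and Fscn1 were all below 0.50 CPM per kb in every EV library and overlapped with their neighbours.

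Searches of the RefSeq promoter windows (GRCm38.p6, 250 bases before to 50 after a start) found entries for Marcksl1, Basp1, Fscn1, Tmsb4x, Tmsb10 and Actg1, and none were used for Marcks, Gap43 and Actb. The motifs were ACAAAG and ACAATG, cores bound by SOX proteins, and the CArG box bound by SRF, on both strands. Of 32851 windows, 18.7% held ACAAAG, 12.6% held ACAATG and 1.63% held a CArG box. The windows of Marcksl1, Basp1 and Tmsb4x held no match. Sites are shown in windows of 30 bases with the motif in capitals, CTTTGT being ACAAAG on the other strand, for Fscn1 at chr5:142960340-142960369 (plus strand), for Tmsb10 at chr6:72958897-72958926 and for Actg1 at chr11:120348566-120348595 (both minus strand).
Fscn1: ccgccgggctggCTTTGTggagaactgcag
Tmsb10: ctccgcccttagACAATGcctgaaaacagc
Actg1: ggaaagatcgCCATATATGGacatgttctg
The sites begin 3 bases before the start of Fscn1, 166 bases before the most upstream of 3 Tmsb10 starts, and 90 bases before the start of Actg1. They are matches of letters only, and binding was not measured in these libraries.

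The closest relatives of these genes had few reads, at most 21 in a library. Of 10 other fascin, thymosin and actin genes none passed the filter. Fscn3, Tmsb15a, Tmsb15b2 and Actg2 had 0 counts in all libraries. Fscn2 had 1 read, in Sox4 1. Tmsb15l had 2, 1 and 0 counts in EV and none in Sox4, and Tmsb15b1 had 0, 2 and 4 in EV and 3, 3 and 7 in Sox4. Among the muscle actins, Acta2, the smooth muscle actin also made by activated stellate cells, had 0 counts in EV and 4, 0 and 1 in Sox4, and Acta1 had at most 3 counts. Actc1, cardiac actin, had 2, 0 and 0 counts in EV and 21, 10 and 6 in Sox4.

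Other genes of the actin system were examined by function, as 142 genes in 8 lists, of which 115 were tested; 7 of the lists are described. Of these 57 (49.6%) were higher in Sox4 and 18 (15.7%) lower, against 29.0% and 26.0% of all genes tested, and 40 did not pass the threshold. Their median log2FC was 0.34, where that of all tested genes was 0.04. The lists were written with earlier results of these data known, so these values are given as a description. With library size alone the counts were 91 higher and 6 lower. Over all 12691 genes that scaling called 8094, of which 6464 were higher, so the direction of small changes depends on the scaling. The legends of the study count the replicates of this RNA-seq as animals, though the labels do not name them, and the p-values measure the spread between the 3 libraries of a group.

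**Figure D3:**
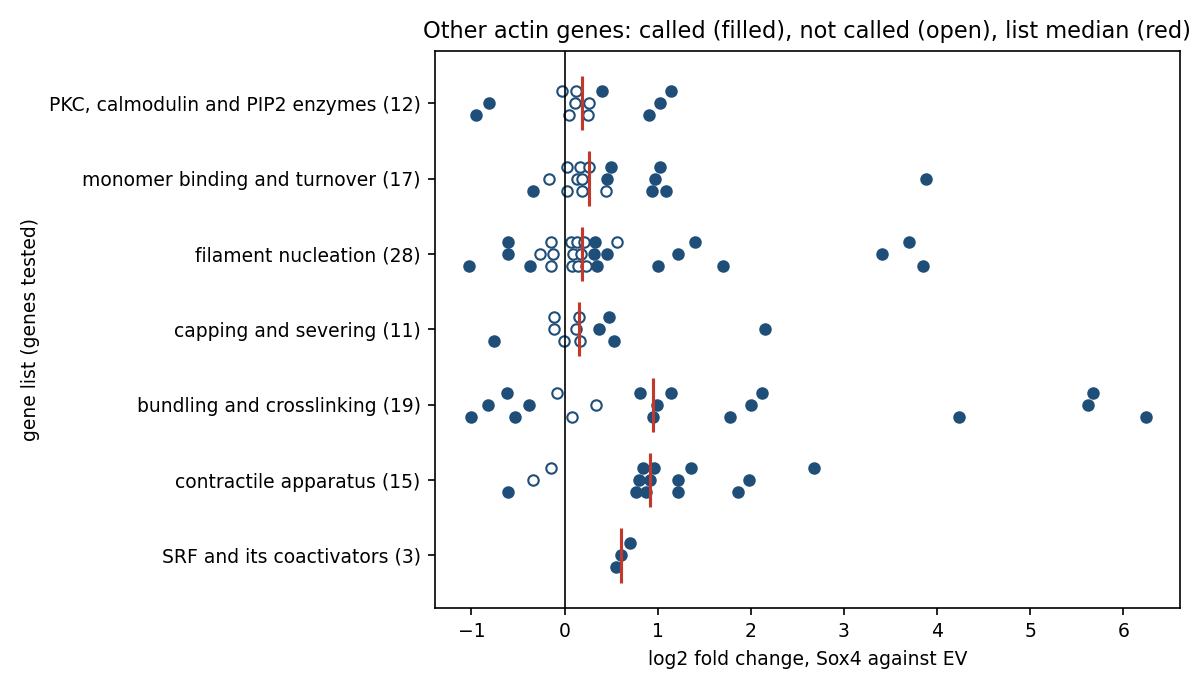
Log2 fold change of Sox4 against EV for 105 actin genes in 7 lists. Each point is a gene, filled where the edgeR adjusted p was under 0.05 and open otherwise, and red lines are list medians. The medians of bundling and crosslinking (0.95) and contractile apparatus (0.92) lie furthest to the right, and lower genes stand in every list but SRF and its coactivators.

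Enzymes and ligands that act on MARCKS proteins moved in both directions. Of 12 tested genes for protein kinase C, calmodulin and the enzymes that make or cut PIP2, 4 rose and 2 fell. Beside this count and those of the lists and markers that follow stand the shares over all genes tested, 29.0% higher and 26.0% lower. Nothing is read from a small list whose counts lie near these shares. Calm2 rose from 99.3 ± 7.17 to 219 ± 4.85 CPM, a log2FC of 1.14 (SE 0.06, adjusted p = 2.74e-05). Pip5k1a, a kinase that makes PIP2, rose by 1.02 (SE 0.12, adjusted p = 0.000191) and Prkcd, protein kinase C delta, by 0.91 (SE 0.20, adjusted p = 0.0021), whereas Prkcz, the atypical isoform zeta, fell (log2FC -0.95, SE 0.10, adjusted p = 0.000272).

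Among 17 tested genes that bind monomers or turn filaments over, 7 rose and 1 fell. Cfl1, cofilin, which severs filaments, rose from 111 ± 11.7 to 237 ± 44.5 CPM (log2FC 1.09, SE 0.18, adjusted p = 0.00029). Limk2, the kinase that inactivates cofilin, rose by 0.94 (SE 0.20, adjusted p = 0.0024), and Wdr1, a cofactor of cofilin, by 0.50 (SE 0.05, adjusted p = 0.00228). Pfn1, profilin, which competes with thymosins for monomers, was at 146 ± 19.9 and 148 ± 27.1 CPM and was singled out after its values were seen. Coro1b, a coronin, had a log2FC of -0.34 (adjusted p = 0.0482). Its call was lost without EV 2 (-0.29), EV 3 (-0.35), Sox4 2 (-0.37) or Sox4 3 (-0.23), and it was at 0.13 with library size alone. Without EV 1, 4 genes of this list rose.

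Genes that nucleate filaments were the most numerous, with 28 tested, of which 11 rose and 4 fell. Wasf2, a WAVE subunit that activates the Arp2/3 complex, rose from 37.9 ± 1.12 to 88.3 ± 9.15 CPM (log2FC 1.22, SE 0.09, adjusted p = 1.94e-05). The formin Fmnl2 rose by 0.999 (SE 0.17, adjusted p = 0.000902) and the Arp2/3 subunit Arpc1a by 0.46 (SE 0.07, adjusted p = 0.00477). Cobl, cordon-bleu, a nucleator, fell (log2FC -1.03, SE 0.11, adjusted p = 0.000151), and the Arp2/3 subunit Arpc5l fell (log2FC -0.61, SE 0.07, adjusted p = 0.00161). Diaph2, a formin, fell (log2FC -0.61, SE 0.23, adjusted p = 0.021), a call that was lost without EV 3, at -0.44. With library size alone the calls of Arpc5l (-0.14) and Diaph2 (-0.14) were lost. Of 11 tested genes that cap or sever filament ends, 4 rose and 1 fell. Tmod3, a cap of pointed ends, rose by 0.48 (adjusted p = 0.00645), Add1, an adducin, by 0.36 (adjusted p = 0.012) and Capza1, a subunit of capping protein, by 0.53 (adjusted p = 0.018). The call of Capza1 was lost without EV 1 (0.38) and without Sox4 2 (0.46). Flii, a gelsolin relative, fell (log2FC -0.75, SE 0.10, adjusted p = 0.000476), a call that was lost with library size alone, at -0.28. Scin and Tmod1 had 0 counts throughout.

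Of the 8 lists, filament bundlers and crosslinkers held the largest log2FC, and 11 of 19 tested genes rose and 5 fell. Flna, filamin A, which ties filaments into networks, had 49, 32 and 64 counts in EV and 4892, 6027 and 5366 in Sox4. This was a rise from 3.61 ± 1.12 to 275 ± 31.4 CPM (log2FC 6.24, SE 0.28, adjusted p = 1.26e-07). Sptan1, alpha-spectrin of the membrane skeleton, rose from 128 ± 8.93 to 512 ± 28.0 CPM (log2FC 2.00, SE 0.07, adjusted p = 2.35e-06). Ezr, ezrin, which links filaments to the membrane, rose by 2.12 (SE 0.11, adjusted p = 1.59e-05). Its relative Rdx, radixin, the main member in hepatocytes, fell from 259 ± 6.51 to 169 ± 16.6 CPM (log2FC -0.62, SE 0.08, adjusted p = 0.00183). The call of Rdx was lost with library size alone, at -0.15. Lima1 fell (log2FC -1.003, SE 0.08, adjusted p = 4.91e-05) and Pls3, a plastin, also fell (log2FC -0.82, SE 0.03, adjusted p = 8.81e-05).

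Enah, Evl and Espn, singled out after their values were seen, were near the floor in EV, as Marcks and Fscn1 were. Enah and Evl encode the Ena/VASP proteins that elongate filaments at the tips of filopodia, and Espn encodes espin, a bundler. Enah had 1, 1 and 4 counts in EV and 153, 136 and 188 in Sox4, and rose by 5.68 (SE 0.38, adjusted p = 5.63e-06). Evl had 2, 2 and 3 counts in EV, at or under the floor, and 181, 160 and 191 in Sox4. Espn had 3, 9 and 7 counts in EV and 153, 191 and 195 in Sox4, and rose by 4.24 (SE 0.37, adjusted p = 8.3e-06). Vasp, the third Ena/VASP gene, chosen in the same way, was already at 11.1 ± 1.33 CPM in EV and rose to 24.4 ± 7.50 CPM (log2FC 1.14, SE 0.26, adjusted p = 0.00165).

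Of 15 tested genes of the contractile apparatus, 12 rose and 1 fell. Tagln2, transgelin 2, rose from 4.39 ± 1.03 to 28.2 ± 4.06 CPM (log2FC 2.68, SE 0.24, adjusted p = 5.97e-06). Tpm4, a cytoplasmic tropomyosin, rose by 1.87 (SE 0.32, adjusted p = 0.000218) and Mylk, myosin light chain kinase, by 1.35 (SE 0.07, adjusted p = 1.1e-05). Myl6, an essential light chain, overlapped between groups and fell (log2FC -0.60, SE 0.27, adjusted p = 0.0307), a call that was lost without EV 1 (-0.56), EV 2 (-0.56), Sox4 2 (-0.44) or Sox4 3 (-0.54). It was also lost with library size alone, at -0.13. Without Sox4 1, 2 genes of this list were lower.

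Srf and both coactivators rose, with log2FC between 0.55 and 0.70. Srf had 185, 193 and 139 counts in EV and 579, 314 and 364 in Sox4, a log2FC of 0.70 (SE 0.31, adjusted p = 0.0323). Mrtfb was at 0.61 (SE 0.14, adjusted p = 0.00369) and Mrtfa at 0.55 (SE 0.13, adjusted p = 0.0133). The call of Srf was lost without EV 1 (0.76), EV 2 (0.78), EV 3 (0.53) or Sox4 1 (0.40), and that of Mrtfa without EV 2 (0.53) or Sox4 2 (0.42), so without EV 2 only Mrtfb was called. Mrtfb kept its call in each alternative.

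Because several of the 9 genes are abundant in blood cells, endothelium or stellate cells, markers of those cells were summed in each library. In bulk samples, fewer cells of a type and less RNA per cell cannot be told apart. The 10 Kupffer cell markers, led by Cd5l, summed to 13.4, 25.0 and 28.8 CPM in EV and 29.1, 57.2 and 67.8 CPM in Sox4, and 4 of 9 tested were higher, or all 10 without Sox4 1. The 10 endothelial markers, led by Stab2, summed to 22.5, 31.9 and 38.1 CPM in EV and 20.2, 41.7 and 50.5 CPM in Sox4, with 2 of 10 higher and 1 lower, though none was higher without EV 1, Sox4 2 or Sox4 3 and none lower without EV 2, EV 3, Sox4 1 or Sox4 2. The 10 stellate cell markers summed to 10.8, 29.6 and 50.8 CPM in EV and 139, 151 and 99.7 CPM in Sox4, mostly from Reln, and 4 of 6 tested were higher, or 2 without EV 2 or Sox4 2 and 8 without EV 3 or Sox4 1.

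Cholangiocyte markers had sums between 61.5 and 68.8 CPM in EV and between 102 and 119 CPM in Sox4, with 2 of 4 tested higher, and Slc4a2, the one with the most counts, at 41.5 ± 1.52 and 44.9 ± 5.84 CPM. Leukocyte markers, led by Ptprc, summed to at most 2.43 CPM in EV and 4.64 CPM in Sox4, with Ms4a1 and Ly6g at 0, and the 1 tested did not pass the threshold. Mesothelial markers, led by Lrrn4, summed to at most 0.759 CPM with Upk3b at 0. Platelet and erythroid markers, with Ppbp and Gp9 at 0, consisted almost wholly of Alas2. It was lower in Sox4, at 9.89 ± 5.34 CPM against 108 ± 16.7 CPM. The globin genes of this list ran the other way on few reads, and neither passed the filter. Hbb-bs had 3, 0 and 5 counts in EV and 13, 22 and 9 in Sox4. Hba-a1 had 2, 2 and 2 in EV and 4, 11 and 8 in Sox4. The sum of this list therefore follows Alas2 alone. Of 8 hepatocyte markers 7 were lower in Sox4, or 3 with library size alone. The part of these cells in the values of the 9 genes was not tested.

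Of the 9 genes, Tmsb4x, Fscn1 and Marcks placed the libraries of each group in the same order as the Kupffer sum. The share of all tested genes with this order is not given here, so nothing is read from the match. The endothelial sum had that order too, so the likeness is not particular to Kupffer cells. The stellate sum had it in EV but not in Sox4, where its main gene Reln was at 126, 117 and 50.8 CPM. Of the other stellate markers, Lrat, Rgs5, Dcn, Col1a1, Col3a1, Ecm1 and Hgf had the Kupffer order in Sox4, and Des and Pdgfrb did not. Marcksl1 and Actb ran opposite to the Kupffer sum in Sox4, and Tmsb10 was highest in Sox4 1.

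Each gene was also set against the markers of its own library. Most stellate marker counts in each library were of Reln, with 92, 298 and 517 counts in EV and 2522, 2291 and 1003 in Sox4. Values on the stellate scale therefore follow that gene more than the rest of the list. Tmsb4x had 19.0, 15.5 and 17.6 counts per 100 Kupffer marker counts in EV and 30.8, 23.4 and 20.6 in Sox4. Per 100 endothelial marker counts it had 11.3, 12.1 and 13.3 in EV and 44.4, 32.2 and 27.7 in Sox4, and per 100 stellate marker counts 23.6, 13.0 and 9.99 in EV and 6.43, 8.86 and 14.0 in Sox4. Its groups were apart on the first 2 scales and overlapped on the stellate scale. Fscn1 had 1.72, 1.21 and 1.26 counts per 100 Kupffer marker counts in EV and 16.2, 11.5 and 12.2 in Sox4. Per 100 stellate marker counts it had 2.14, 1.02 and 0.713 in EV and 3.38, 4.35 and 8.27 in Sox4. Fscn1 in Sox4 lay above EV on all 3 scales, but by less on the stellate scale. Marcks had 0.575, 2.73 and 4.53 counts per 100 Kupffer marker counts in EV and 313, 170 and 176 in Sox4, and per 100 stellate marker counts 0.714, 2.30 and 2.57 in EV and 65.4, 64.1 and 120 in Sox4. Marcks, Marcksl1 and Tmsb10 lay above EV on all 3 scales, Actb overlapped on all 3, and Actg1 overlapped on the Kupffer and stellate scales.

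**Figure D4:**
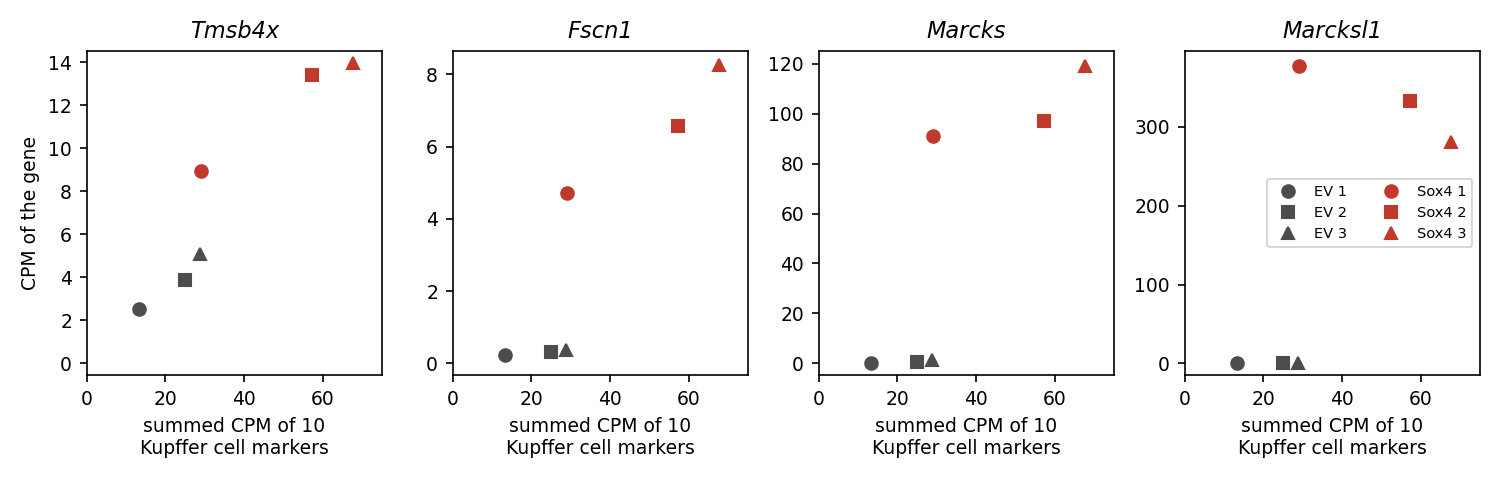
CPM of Tmsb4x, Fscn1, Marcks and Marcksl1 (vertical axes) against the summed CPM of 10 Kupffer cell markers (horizontal axis) in each library, grey for EV and red for Sox4, with replicate 1 as a circle, 2 as a square and 3 as a triangle. The marker sums run from 13.4 to 28.8 CPM in EV and from 29.1 to 67.8 CPM in Sox4, and each of the 4 genes is higher in all Sox4 libraries.

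Genes whose levels ran most like Marcks over the 6 libraries were Hdac1, a histone deacetylase, Rcn2, a calcium-binding protein of the secretory pathway, and Abcc5, a transporter. Each had a Pearson correlation of 0.999 with Marcks on the log2 CPM scale, out of 9019 genes that averaged 100 counts or more. The value is a description of 2 separated groups of 3 libraries, and 1014 of these genes exceeded 0.95. The likeness was in pattern and not in size, since Hdac1 went from 22.6 ± 2.00 to 35.1 ± 0.625 CPM and Abcc5 from 1.07 ± 0.546 to 37.2 ± 3.46 CPM.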

How the data were processed

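Per the labels, the authors aligned reads to GRCm39 with STAR 2.7.10b and counted them with featureCounts 2.0.1; the annotation, strand setting and treatment of multi-mapping reads are not given in the sources used here. The tables were deposited by the authors: unnormalized counts, one row for each gene, and a signal table that the authors made by dividing those counts by DESeq2 size factors, used here only as an alternative. Counts were fitted in R 4.3.3 with edgeR 4.0.16 (filterByExpr with a minimum count of 10 and total of 15, TMM, robust quasi-likelihood F test, Benjamini-Hochberg over 12691 genes, threshold 0.05). All adjusted p-values come from this fit. It was also run on simulated counts, in which far fewer genes changed than were called here. That simulation therefore does not test how the scaling affects the calls. SEs are from log2 CPM with a prior count of 2. The 9 genes, the gene lists and the markers were chosen with earlier results of these data known. Named pathway genes are the 3 largest called changes in each direction per list with a mean count of at least 100; exceptions are stated. A gene, a gene list and a promoter site are not reported here. Lengths, coding sequences and shared 50-base stretches come from GENCODE M21 (GRCm38) transcripts, and promoters from RefSeq, both of another build than the counts. Alternatives were limma 3.58.1, DESeq2 1.42.0, other scalings and filters, a replicate block and each library left out.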

Additional observations from a re-analysis of the deposited data

How the results depend on the processing

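The number of genes called over all genes ranged from 5937 to 8094 over the alternatives, against 6990, and from 6027 to 7269 when 1 library was left out. The log2FC of the 7 genes of the list that passed the filter, which were selected on this contrast, stayed above 0 in each setting that gave a value. Scaled to Actb, where no call was made and Actb has no value, Tmsb4x was at 0.51 and its groups overlapped. With library size alone, 91 actin genes were higher and 6 lower, against 57 and 18 with TMM. Over all 12691 genes, 3684 of 6990 calls (52.7%) were higher with TMM, and 6464 of 8094 (79.9%) with library size alone. Coro1b (0.13) and Rac1 (0.086) changed direction under that scaling. When 1 library was left out, the higher actin genes numbered 49 to 57 and the lower ones 12 to 18. With the replicate number as a block, 7362 genes were called, with 59 actin genes higher and 19 lower. Same-numbered libraries did not deviate together in every pair (correlations of 0.27, -0.09 and 0.13). These values cannot settle whether such libraries shared a day or a batch, which the labels do not say. Of the values recomputed for single genes and single gene lists, 994 held, 72 moved, 30 lost the threshold and 2, those of Coro1b and Rac1, changed sign. For the 7 genes of the list, a value held if it shifted by less than the spread between libraries. For other genes it held if direction and side of the threshold were kept. The count of a gene list held within a factor of 1.5, and moved if it went beyond that or fell to or rose from 0. With EV levels of a few counts, depth limits the precision of the folds of Marcks, Marcksl1, Tmsb10 and Fscn1.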
